A study of Mus musculus with 4 samples.

Results

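The genes described here are the subunits, chaperones and activators of the proteasome, on arrays of 4 populations of mouse CD4 T lineage cells. They were taken by symbol, as every gene whose symbol begins with Psma to Psmg followed by a digit, without pseudogenes and without the immunoproteasome genes Psmb8, Psmb9 and Psmb10. This gave 46 of the 22180 genes measured, of which 44 belong to the proteasome or its assembly and regulation. The other 2, Psmc3ip, a cofactor of meiotic recombination, and Psme3ip1, which encodes a partner of the activator Psme3, match by symbol only. The rule uses symbols and no measured value. Psma4, which encodes the remaining alpha ring subunit, is not among them because its probe sets carry a second gene symbol.

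Each population was measured once, on 1 Affymetrix array, in C57BL/6 mice of 8 weeks. Natural Th1 cells (nTh1) were CD4+CD62L+CXCR3+ thymocytes of CIITAtg mice, which carry a transgene of CIITA, the master regulator of MHC class II genes (the sources used here name no promoter for it). Classic Th1 cells (cTh1) were CD4+CD62Lhi cells of wild-type spleen, kept in culture for 5 days on beads against CD3 and CD28. The medium held 2 ng/ml of IL-12, 50 U/ml of IL-2 and antibody against IL-4. TT naive cells were CD4+CD62L+CXCR3- thymocytes of CIITAtg mice. Naive cells were CD4+CD62Lhi cells of wild-type spleen, uncultured. With 1 array per population no difference has a replicate check, no test was possible and no p-value is given. The sources used here do not say whether animals were pooled.

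Levels are log2 RMA values, and a difference is the first array's log2 level less the second's. The Cd4 transcript was at 12.42 in nTh1, 12.72 in cTh1, 12.63 in TT naive and 12.33 on the array labelled naive, and Cd3e, an invariant chain of the T cell receptor complex, lay between 12.88 and 13.11. The array labelled naive went against its label. Zbtb16, the gene of PLZF, a factor of innate-like lymphocytes, was at 12.23 there, against 9.88 in nTh1, 7.31 in cTh1 and 9.36 in TT naive. Cxcr3, the gene of the sorted receptor, was at 9.80 there, against 9.91 in nTh1, 10.53 in cTh1 and 7.76 in TT naive. It is called the array labelled naive throughout, and every direction drawn from it or from nTh1, whose Cxcr3 level it shares, depends on those labels. Tbx21, which encodes the T-bet factor that defines Th1 cells, was at 9.81 there, against 7.92 in nTh1, 11.25 in cTh1 and 7.11 in TT naive. The nTh1 array was thus 3.70-fold lower for Tbx21 than the array labelled naive, against both labels. These values do not settle whether the labels of nTh1 and naive were exchanged. The arrays also differed in sex-linked transcripts. Xist, the RNA of the inactive X chromosome, lay between 12.56 and 13.25 on all 4 arrays. The Y-linked Eif2s3y was at 5.16 in nTh1 and 4.97 in cTh1, against 8.55 in TT naive and 8.61 on the array labelled naive. Both Th1 arrays thus lacked the Y-linked signal that both other arrays carried. As labelled, in nTh1 or cTh1 over either of the other arrays, this difference and that of cell type cannot be told apart. Tissue and genotype differ too in nTh1 over the array labelled naive and in cTh1 over TT naive. Were the labels of nTh1 and naive exchanged, the Y-linked difference would instead go with tissue and genotype.

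The proteasome is the protease that degrades proteins marked with ubiquitin. Its core particle is a barrel of alpha and beta rings with the cutting sites on 3 beta subunits, and its regulatory particle has a base of ATPases that unfold the substrate and a lid that removes the ubiquitin chain. Lymphocytes also carry an immunoproteasome, in which interferon-inducible subunits replace the 3 catalytic ones. In mammals the transcription factor encoded by Nfe2l1 raises subunit genes together when proteasome activity is short, through sites known as antioxidant response elements.

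Promoters were searched for 7 motifs, and the 4 described first were picked after the shares of all 7 had been seen. Promoters were in the RefSeq table (GRCm38.p6) for 38 of the 46 genes, as windows of 250 bases before to 50 bases after the start site. The core of the antioxidant response element, TGACNNNGC on either strand, was in 6 of them (15.8%), against 14% of all 27025 genes in the table. Psmb5 and Psmb6, which encode catalytic beta subunits, hold it at 47 and 9 bases before the start site. The ETS site CCGGAAG was in 16 of 38 (42.1%), against 9.93% of all genes, and CCAAT in 15 (39.5%), against 41.1%. The core of the interferon response element, GAAA, any 2 bases and GAAA again, was in 5 (13.2%), against 3.99%. Of the other 3, the GAS element TTCNNNGAA was in 2 of 38 (5.26%), against 9.55%, the CRE palindrome in 0 of 38 (0%), against 2.03%, and the NRF1 palindrome in 6 of 38 (15.8%), against 7%. A match is a description of the letters and not evidence of binding, and a gene with several listed start sites counted once. Of the 5 genes at least 1.5-fold lower in nTh1 than in TT naive cells, 3 are shown, Psmc2, Psmg1 and Psmd6. Psmb1, also lower, had no promoter in the RefSeq table. Psme2, also lower, was not among the genes with a match to any of the 7 motifs. The windows below are those of Psmb5 and Psmb6, of Psmc2, Psmg1 and Psmd6, and of the activator gene Psme1. They run 5′ to 3′ along the gene, with matches to the 4 motifs described first in capitals.
Psmb5, minus strand, chr14:54617946-54618245: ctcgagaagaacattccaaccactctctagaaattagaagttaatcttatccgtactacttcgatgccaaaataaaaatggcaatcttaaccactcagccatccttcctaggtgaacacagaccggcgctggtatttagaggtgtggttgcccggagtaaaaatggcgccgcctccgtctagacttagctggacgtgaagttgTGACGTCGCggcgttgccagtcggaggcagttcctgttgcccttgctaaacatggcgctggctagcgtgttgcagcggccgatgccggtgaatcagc
Psmb6, plus strand, chr11:70525107-70525406: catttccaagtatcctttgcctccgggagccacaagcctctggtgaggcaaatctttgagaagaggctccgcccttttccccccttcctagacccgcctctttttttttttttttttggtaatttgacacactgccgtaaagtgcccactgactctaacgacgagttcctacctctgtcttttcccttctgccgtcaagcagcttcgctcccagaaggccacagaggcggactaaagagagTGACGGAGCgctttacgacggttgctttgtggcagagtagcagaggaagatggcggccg
Psmc2, plus strand, chr5:21785025-21785324: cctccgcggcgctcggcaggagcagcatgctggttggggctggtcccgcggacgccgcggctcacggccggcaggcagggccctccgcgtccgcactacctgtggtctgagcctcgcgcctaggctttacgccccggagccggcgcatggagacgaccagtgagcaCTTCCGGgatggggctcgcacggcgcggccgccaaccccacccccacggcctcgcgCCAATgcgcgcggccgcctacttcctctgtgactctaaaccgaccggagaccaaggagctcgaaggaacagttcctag
Psmg1, minus strand, chr16:95990911-95991210: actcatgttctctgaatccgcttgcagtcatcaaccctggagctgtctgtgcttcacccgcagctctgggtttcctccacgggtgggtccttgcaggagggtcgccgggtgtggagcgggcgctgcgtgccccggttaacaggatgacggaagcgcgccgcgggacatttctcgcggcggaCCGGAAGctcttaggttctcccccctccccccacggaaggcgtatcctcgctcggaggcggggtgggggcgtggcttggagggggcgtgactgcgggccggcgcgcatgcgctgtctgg
Psmd6, minus strand, chr14:14120896-14121195: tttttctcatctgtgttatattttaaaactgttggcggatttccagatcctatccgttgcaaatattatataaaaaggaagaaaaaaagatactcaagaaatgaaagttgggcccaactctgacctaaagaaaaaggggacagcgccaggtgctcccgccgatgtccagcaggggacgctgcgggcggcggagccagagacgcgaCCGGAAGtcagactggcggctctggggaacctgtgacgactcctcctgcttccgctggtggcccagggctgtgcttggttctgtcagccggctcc
Psme1, plus strand, chr14:55578244-55578543: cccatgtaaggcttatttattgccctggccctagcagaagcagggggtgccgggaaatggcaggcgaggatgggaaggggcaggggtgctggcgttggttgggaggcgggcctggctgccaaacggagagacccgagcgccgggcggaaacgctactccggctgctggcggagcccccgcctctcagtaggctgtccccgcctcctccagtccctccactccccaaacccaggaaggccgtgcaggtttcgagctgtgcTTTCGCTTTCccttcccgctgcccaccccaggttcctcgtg
In these windows Psmc2, Psmg1 and Psmd6 each hold the ETS site, Psmc2 also holds CCAAT, and Psme1 holds the interferon response core just after the start site. The windows shown were picked, so they give no share of the lower genes. The window of Psmc2 is the first of the start sites listed for it.

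Most proteasome genes had their highest value on the array labelled naive and their lowest in nTh1. The array labelled naive was highest for 35 of the 46 genes, where it was highest for 29.5% of the 12159 genes past a level filter (a mean over the 4 arrays of 6.61, the median value, or more). The nTh1 array was lowest for 29 of 46, against 35.3% of all genes. Without the array labelled naive, nTh1 was lowest of the other arrays for the same number, 29 of 46, against 40.2% of all genes, TT naive was highest for 28, against 29.7%, and cTh1 for 13, against 45.2%. With it, TT naive and cTh1 were each highest for 4, against 16.4% and 34.1%. Among the 43 members past that filter the median range over the 4 arrays was 0.44, where the median over all genes was 0.51. In bulk RNA, fewer cells of a kind and less RNA per cell cannot be told apart. The filter was passed by 43 of the 46 genes, and Psma5, Psma8 and Psmb11 lay below it. Counts below are over all 46.

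**Figure D1:**
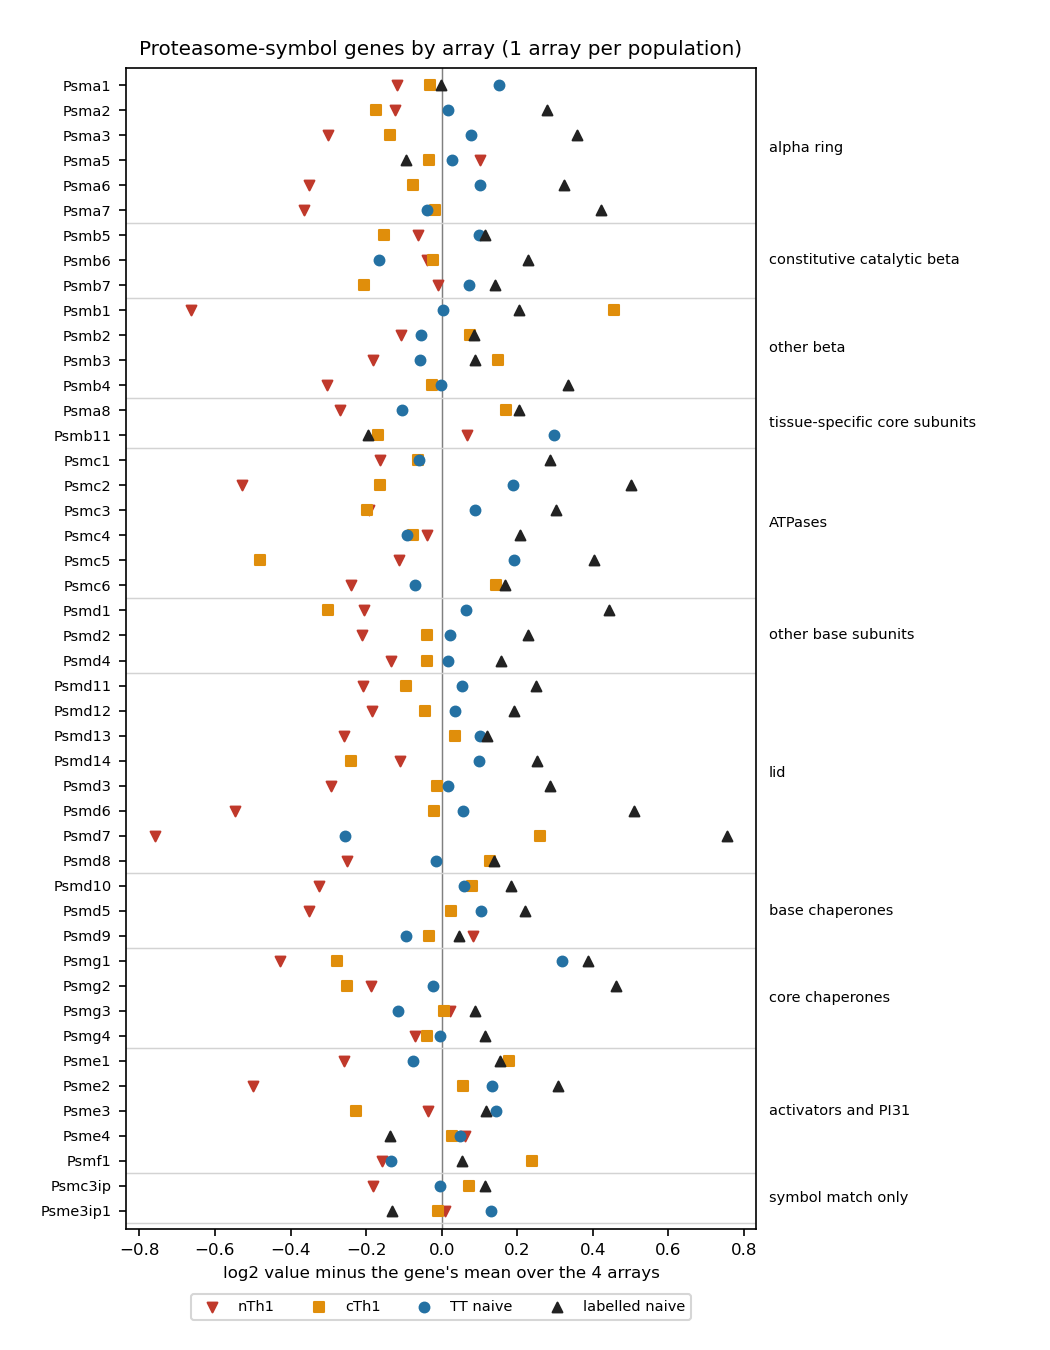
Each row is a gene of the proteasome symbol rule, grouped by role, and each marker is its log2 value on 1 array minus the gene's mean over the 4 arrays (horizontal axis). The array labelled naive lies at the right for 35 of 46 genes and nTh1 at the left for 29, with Psmd7, Psmb1, Psmc2 and Psmd6 spread most widely.

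Among CIITAtg thymocytes, proteasome genes were mostly a little lower in nTh1 than in TT naive cells. In this comparison, which asks what goes with CXCR3, 40 of 46 genes were lower (87.0%), against 58.1% of all genes. The median difference was -0.21 over the 46 genes and -0.05 over all genes. This direction depends on the labels of nTh1 and naive: were they exchanged, the CXCR3+ cells would be those of the array labelled naive, and 40 of 46 genes were lower in TT naive than on it, so that the direction would turn. At least 1.5-fold lower were 5 genes, Psmg1, Psmc2, Psmb1, Psme2 and Psmd6 (10.9%, against 4.43% of all genes), and 0 were 1.5-fold higher, against 3.49%. At 2-fold 0 were lower, against 1.04% of all genes. The only error that could be measured, the SD between probe sets of 1 gene, was 0.25 in this comparison over 437 genes with several probe sets. It holds nothing of the variation from animal to animal or sort to sort. By more than that SD, 19 of 46 genes were lower (22.2% of all genes) and 0 higher (12.5%). With differences centred on the median of all genes, or with a trend on level removed, 39 and 37 genes stayed below 0, but 3 passed 1.5-fold, since Psmd6 and Psme2 no longer did.

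Compared with the array labelled naive, cTh1 cells had lower values for most proteasome genes too. Here 38 of 46 were lower (82.6%), against 52.7% of all genes, with a median of -0.25 and -0.02 over all genes. At least 1.5-fold lower were 5 genes, Psmc5, Psmd1, Psmg2, Psmc2 and Psmg1, against 9.72% of all genes, so their share (10.9%) was near that of the array as a whole, and 0 were 1.5-fold higher, against 10.7%. At 2-fold 0 were lower, against 3.22%. By more than the SD between probe sets, 0.38, 13 genes were lower (18.4% of all genes) and 0 higher (17.8%). Against TT naive cells in place of that array, cTh1 showed a smaller shift. Then 30 of 46 were lower (47.5% of all genes), the median was -0.06 against 0.02, and 3 genes were lower and 2 higher by more than the SD of 0.40 (16.3% and 20% of all genes). At 1.5-fold, Psmc5 and Psmg1 were lower (9.66% of all genes) and 0 higher (13.7%), and at 2-fold 0 were lower (2.99%). Centred on the median of all genes, 33 of 46 were below 0 in cTh1 over TT naive, with a median of -0.09. With a trend on level removed it was 27, with a median of -0.02. The size of the shift in cTh1 thus depends on which array it is set against. In both comparisons culture and Y-linked signal differ, and in cTh1 over TT naive tissue and genotype too. These cannot be told apart.

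**Figure D2:**
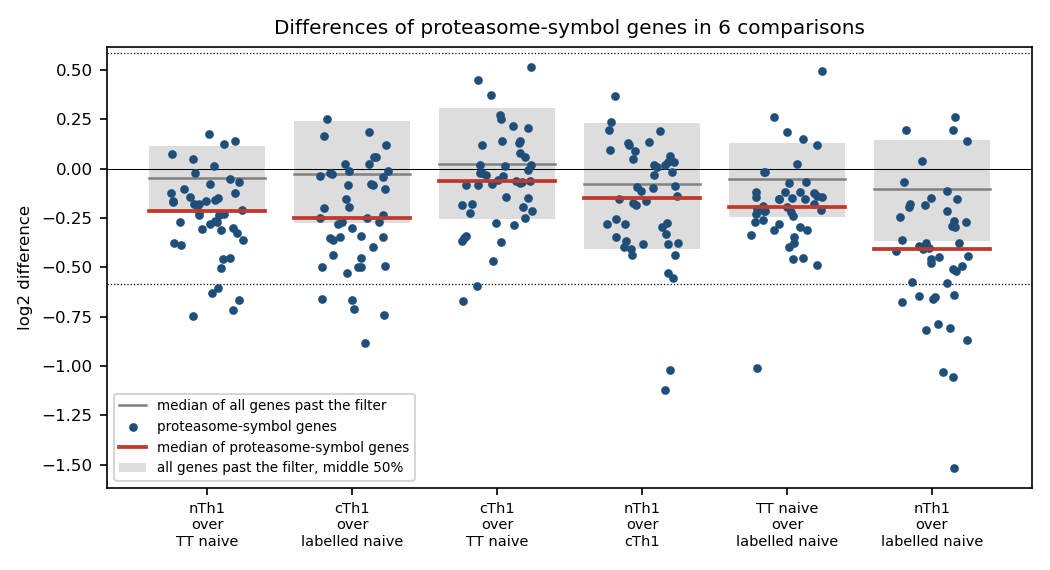
Log2 differences (vertical axis) of the 46 proteasome genes in 6 comparisons, 1 point per gene with the median as a red line, beside the middle 50% of all 12159 genes past the filter as a grey bar with its median. Dotted lines mark 1.5-fold. The medians lie below those of all genes, farthest for nTh1 over the array labelled naive (-0.40) and nearest for nTh1 over cTh1 and cTh1 over TT naive.

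Between natural and classic Th1 cells, 30 of 46 genes were lower in nTh1, against 57% of all genes, and the median was -0.15 against -0.08. Only Psmb1 and Psmd7 passed 1.5-fold, both lower in nTh1 by more than 2-fold, where 17.2% of all genes were 1.5-fold lower and 9.98% higher. At 2-fold the share of all genes lower was 7.94%. Within the SD between probe sets, 0.45, were 42 of the 46 genes, 4 were lower by more than it (22.6% of all genes) and 0 higher (14%). Tissue, genotype and culture differ together in this comparison and cannot be told apart.

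The array labelled naive stood above both thymic arrays. In TT naive cells 40 of 46 genes were lower than on it (57.6% of all genes), with a median of -0.19 against -0.05, and 1 gene, Psmd7, was 1.5-fold lower (6.99% of all genes), with 0 higher (3.26%). Psmd7 was also 2-fold lower (2.42%). By more than the SD between probe sets 10 genes were lower (19.7%) and 1 higher (11.5%). In nTh1 cells 41 of 46 were lower than on it (60.8% of all genes). Their median was -0.40 where all genes had -0.10, which leaves -0.30 relative to all genes. At least 1.5-fold lower were 12 genes (26.1%, against 13% of all genes), 3 of them by more than 2-fold (4.33% of all genes), and 0 were 1.5-fold higher (5.79%). By more than the SD between probe sets 26 were lower (24.3%) and 0 higher (11.8%). Centred on the median of all genes, 7 passed 1.5-fold. These comparisons share arrays with those above and are not separate evidence. Tissue and genotype differ in both, and Y-linked signal in nTh1 over the array labelled naive. These cannot be told apart.

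The pairs nTh1 with TT naive and cTh1 with the array labelled naive share no array, though both set an array without Y-linked signal against one with it. In both pairs 34 of the 46 genes were lower, against 32.4% of all genes, and 2 were higher in both, against 21.5%. Across the 46 genes the differences of the pairs had a Pearson r of 0.38, and across all genes 0.17, which describes these arrays only, since genes are not independent replicates. Psmc2 and Psmg1 were 1.5-fold lower in each pair. Psmc2 no longer passed 1.5-fold in cTh1 over the array labelled naive with the mean of its probe sets (-0.51) or with the trend on level removed (-0.58). Psmb1 was lower by 0.67 in nTh1 and higher by 0.25 in cTh1.

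**Figure D3:**
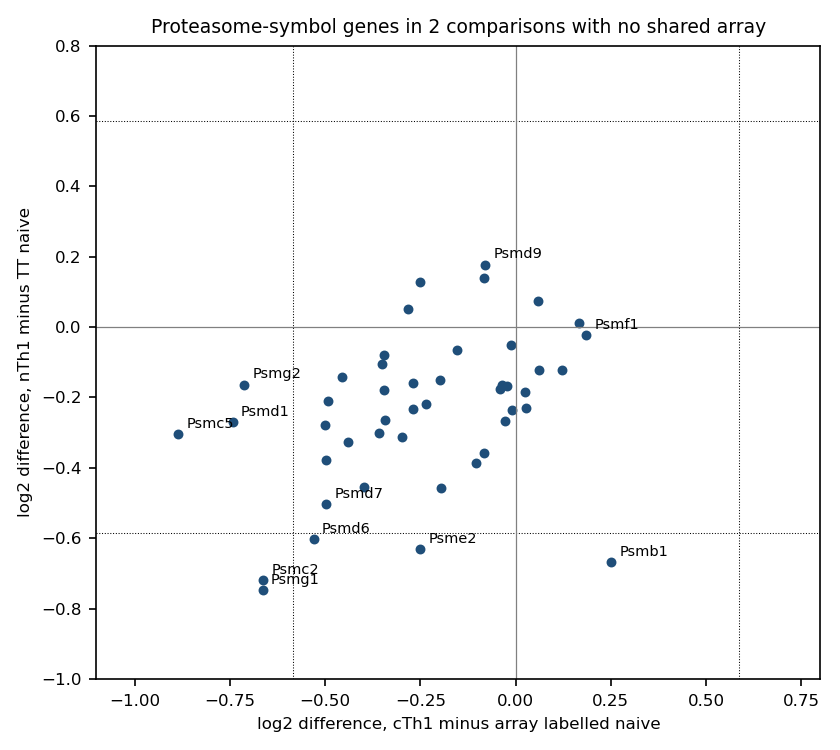
Each point is 1 of the 46 proteasome genes, with its log2 difference for cTh1 minus the array labelled naive (horizontal) and for nTh1 minus TT naive (vertical). Dotted lines mark 1.5-fold, and 34 points lie to the lower left of both zero lines, Psmc2 and Psmg1 beyond 1.5-fold on both axes.

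Among the alpha ring subunits, which form the gated outer rings of the core particle, 6 genes were measured. In nTh1 over TT naive 5 of 6 were lower, against 58.1% of all genes, with a median of -0.30 against -0.05. None reached 1.5-fold, where 4.43% of all genes were lower by it and 3.49% higher. Psma3 was at 10.62 in nTh1, 10.78 in cTh1, 11.00 in TT naive and 11.28 on the array labelled naive, and Psma6 was at 10.49, 10.76, 10.94 and 11.16 in the same order. Both fall in the same order of arrays, with nTh1 lowest. Psma7 was at 9.18 in nTh1, 9.53 in cTh1, 9.51 in TT naive and 9.96 on the array labelled naive, so cTh1 and TT naive were level for it. Psma1 was instead highest in TT naive, at 10.85, against 10.58 in nTh1, 10.67 in cTh1 and 10.69 on the array labelled naive. Psma2 was lowest in cTh1, at 10.01, against 10.06 in nTh1, 10.20 in TT naive and 10.46 on the array labelled naive. The probe set of Psma5 lay below the level filter on every array, between 5.69 and 5.89, and its other probe set lay between 4.08 and 5.36, also below the filter.

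The 3 constitutive catalytic genes had a median of -0.08 in nTh1 over TT naive, -0.27 in cTh1 over the array labelled naive and -0.25 in cTh1 over TT naive. Psmb6, the caspase-like subunit, was at 9.93 in nTh1, 9.94 in cTh1, 9.80 in TT naive and 10.20 on the array labelled naive. Psmb7, the trypsin-like subunit, was at 9.96, 9.76, 10.04 and 10.11 in that order. Psmb5, the chymotrypsin-like subunit, was at 12.07, 11.98, 12.23 and 12.24. All 3 were highest on the array labelled naive (29.5% of all genes), and nTh1 was lowest for none of them (35.3% of all genes). In nTh1 over TT naive they differed by -0.16 to 0.13, within the SD between probe sets. In cTh1 over TT naive they differed by -0.28 to 0.14, also within it.

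Their immunoproteasome counterparts belong to the genes of MHC class I antigen processing. Of these 3 counterparts 2 were highest in cTh1, against 34.1% of all genes. Psmb9 was at 9.70 in nTh1, 10.77 in cTh1, 9.86 in TT naive and 10.16 on the array labelled naive, and Psmb8 was at 10.48, 11.27, 10.75 and 10.96. Psmb10 was level, between 11.05 and 11.22. In cTh1 over TT naive Psmb9 was thus higher by 0.90 and Psmb8 by 0.52, while Psmb6, which Psmb9 replaces, differed by 0.14 and Psmb5, which Psmb8 replaces, by -0.25. With 1 array each, whether these gaps exceed the spread between samples could not be tested.

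**Figure D4:**
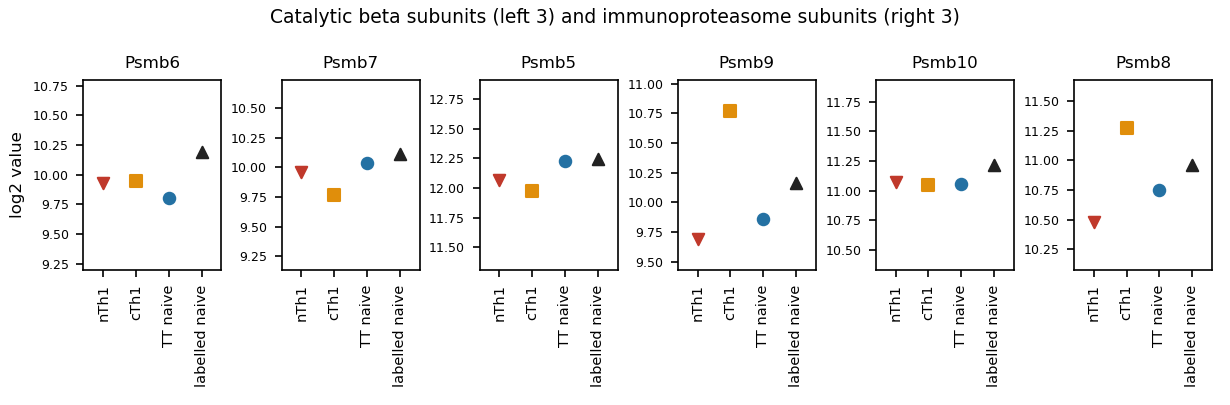
Log2 values (vertical axes, each 1.6 units tall) of the constitutive catalytic subunits Psmb6, Psmb7 and Psmb5 and of their immunoproteasome counterparts Psmb9, Psmb10 and Psmb8, with 1 marker per array. Psmb9 and Psmb8 are highest in cTh1 and lowest in nTh1, and the constitutive genes are highest on the array labelled naive. Heights are not comparable between genes.

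Of the other beta ring subunits, which build the ring without cutting, Psmb1 stood apart. It was at 9.28 in nTh1, 10.40 in cTh1, 9.94 in TT naive and 10.15 on the array labelled naive. Among the 46 genes it had the largest difference between nTh1 and cTh1, 2.17-fold lower in nTh1, at percentile 6.5 of all genes in that comparison. Psmb4 was at 10.27, 10.55, 10.57 and 10.91 in the same order of arrays, highest on the array labelled naive. Psmb2 lay between 10.78 and 10.97 and Psmb3 between 7.24 and 7.57, both lowest in nTh1. All 4 genes of this group were lowest in nTh1, against 35.3% of all genes. In cTh1 over TT naive 3 of 4 were higher, against 52.5% of all genes.

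Core subunits of other tissues stayed below the level filter. Psmb11, the catalytic subunit of the thymoproteasome of cortical thymic epithelium, was at 6.30 in nTh1, 6.07 in cTh1, 6.54 in TT naive and 6.04 on the array labelled naive. Psma8, an alpha subunit of germ cells, was at 5.33, 5.77, 5.49 and 5.80. Psmb11 was slightly higher on both thymic arrays than on both arrays of spleen cells. Of 7 listed markers of thymic epithelium, Psmb11 among them, 6 were measured, between 6.13 and 7.24 in nTh1 and between 6.29 and 7.28 in TT naive, with a summed linear signal of 597 in nTh1, 776 in cTh1, 655 in TT naive and 653 on the array labelled naive.

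In the regulatory particle every one of the 17 measured subunits was highest on the array labelled naive, against 29.5% of all genes, and 12 of 17 were lowest in nTh1, against 35.3%. In nTh1 over TT naive 16 of 17 were lower, with a median of -0.26, against 58.1% of all genes. In cTh1 over the array labelled naive all 17 were lower, with a median of -0.34, against 52.7%. In cTh1 over TT naive it was 13 of 17, with a median of -0.07, against 47.5%.

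Of the ATPases, which form the ring that threads substrates into the core, Psmc2 and Psmc5 differed most. Psmc2 was at 8.77 in nTh1, 9.14 in cTh1, 9.49 in TT naive and 9.80 on the array labelled naive, 1.65-fold lower in nTh1 than in TT naive. Its other probe set, below the level filter on every array, was at 5.57, 6.05, 6.09 and 6.42. It had the same order of arrays, though cTh1 and TT naive differed by only -0.04 for it. Psmc5 was lowest in cTh1, at 8.05, against 8.41 in nTh1, 8.72 in TT naive and 8.93 on the array labelled naive. It was 1.59-fold lower in cTh1 than in TT naive and 1.85-fold lower than on the array labelled naive, the largest difference of the 46 genes in each. Psmc3 shared this low value in both Th1 populations, at 9.20 in both nTh1 and cTh1, against 9.48 in TT naive and 9.70 on the array labelled naive. Psmc1 and Psmc4 hardly separated nTh1, cTh1 and TT naive, at 9.93 to 10.04 and 11.41 to 11.46. Psmc6 was at 10.07 in nTh1, 10.45 in cTh1, 10.24 in TT naive and 10.48 on the array labelled naive.

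The other base subunits include the scaffolds Psmd1 and Psmd2 and the ubiquitin receptor Psmd4. Psmd1 was at 10.28 in nTh1, 10.18 in cTh1, 10.55 in TT naive and 10.93 on the array labelled naive, and so was 1.67-fold lower in cTh1 than on the array labelled naive. Psmd2 was at 10.60, 10.78, 10.84 and 11.04 and Psmd4 at 9.16, 9.25, 9.31 and 9.45, with nTh1 lowest in both. None of these genes reached 1.5-fold in nTh1 over TT naive, where 4.43% of all genes were lower by it and 3.49% higher.

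The lid had the widest difference of all. Psmd7, a partner of the deubiquitinase, was at 9.08 in nTh1, 10.10 in cTh1, 9.58 in TT naive and 10.59 on the array labelled naive. It was 2.03-fold lower in nTh1 than in cTh1, and it was 2.02-fold lower in TT naive and 2.86-fold lower in nTh1 than on the array labelled naive, where it lay at percentile 1.2 of all genes. Both thymic arrays were below both arrays of spleen cells for it. Psmd6 was at 8.80 in nTh1, 9.33 in cTh1, 9.41 in TT naive and 9.86 on the array labelled naive, so nTh1 alone was low. Psmd14, the deubiquitinase of the lid, was at 9.81, 9.68, 10.02 and 10.17, lowest in cTh1. The remaining lid genes were lowest in nTh1 and highest on the array labelled naive without exception, against 35.3% and 29.5% of all genes. Psmd3 was at 9.26 in nTh1 and 9.84 on the array labelled naive, Psmd11 at 9.87 and 10.33, and Psmd12 at 9.81 and 10.19. Psmd13 was at 8.53 in nTh1 and 8.91 on the array labelled naive, and Psmd8 at 11.50 and 11.89. In nTh1 over TT naive all 8 lid genes were lower, with differences of -0.60 to -0.21, against 58.1% of all genes.

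Assembly factors divided into genes that differed and genes that did not. Psmg1, a chaperone that helps the alpha ring form, was at 8.19 in nTh1, 8.34 in cTh1, 8.93 in TT naive and 9.0 on the array labelled naive. It was low on the nTh1 and cTh1 arrays and high on the other two, 1.68-fold lower in nTh1 than in TT naive and 1.58-fold lower in cTh1 than on the array labelled naive. Its partner Psmg2 was at 9.65, 9.58, 9.81 and 10.30, so only the array labelled naive stood out. Its other probe set, below the level filter, differed by only -0.14 in cTh1 over the array labelled naive. Psmg3 was at 7.61 in nTh1, 7.59 in cTh1, 7.47 in TT naive and 7.67 on the array labelled naive, and Psmg4 lay between 8.21 and 8.39. Among the chaperones of the base, Psmd5 was at 9.54 in nTh1, 9.92 in cTh1, 9.996 in TT naive and 10.11 on the array labelled naive. Psmd10, also called gankyrin, was at 9.42 in nTh1, 9.82 in cTh1, 9.80 in TT naive and 9.93 on the array labelled naive. In both nTh1 was the only low array. Psmd9 was level, at 7.81 in nTh1, 7.69 in cTh1, 7.63 in TT naive and 7.77 on the array labelled naive.

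The activators and the regulator Psmf1 did not move together. Psme1 and Psme2 encode the chains of the interferon-inducible activator that caps the core particle. Psme1 was at 10.50 in nTh1, 10.94 in cTh1, 10.69 in TT naive and 10.92 on the array labelled naive, and Psme2 was at 8.49, 9.05, 9.13 and 9.30. Both were lowest in nTh1, and Psme2 was 1.55-fold lower there than in TT naive. A brighter probe set that Psme2 shares with 9930111J21Rik1 and 9930111J21Rik2 had another order. It was at 10.17 in nTh1, 10.32 in cTh1, 10.56 in TT naive and 10.14 on the array labelled naive, which was lowest. In nTh1 over TT naive it differed by -0.39, short of 1.5-fold. Psme3, the nuclear relative of these chains, was lowest in cTh1, at 9.98, against 10.17 in nTh1, 10.35 in TT naive and 10.32 on the array labelled naive. Psme4, a large activator of the nucleus and germ cells, lay at 10.08 in nTh1, 10.05 in cTh1 and 10.07 in TT naive, with 9.88 on the array labelled naive. It was 1 of 4 genes among the 46 for which the array labelled naive was lowest, against 2076 of the 12159 genes past the filter. Psmf1, known as PI31, an inhibitor of the core in vitro, was highest in cTh1, at 10.43, against 10.03 in nTh1, 10.05 in TT naive and 10.24 on the array labelled naive. Of the genes matched by symbol alone, Psmc3ip was at 6.98 in nTh1, 7.23 in cTh1, 7.16 in TT naive and 7.27 on the array labelled naive. Psme3ip1 was at 11.33, 11.31, 11.45 and 11.19 in the same order.

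Other genes of the pathway were read from a list of 25 proteasome partners and regulators, of which 21 were measured. In nTh1 over TT naive 15 of 21 were lower, with a median of -0.09, near the 58.1% and -0.05 of all genes. In cTh1 over the array labelled naive 17 of 21 were lower, with a median of -0.23, against 52.7% and -0.02 of all genes. Nfe2l1 was level, at 9.58 in nTh1, 9.59 in cTh1, 9.73 in TT naive and 9.68 on the array labelled naive. Nfe2l2, its relative of the oxidative stress response, was at 10.76, 10.92, 11.38 and 10.98, highest in TT naive. Pomp, the maturation protein of the core, was at 9.48, 10.03, 9.83 and 10.27, with nTh1 lowest. Uchl5, a deubiquitinase of the base, was at 9.30 in nTh1, 9.06 in cTh1, 9.61 in TT naive and 10.03 on the array labelled naive, and Ube3c, a ubiquitin ligase bound to proteasomes, at 10.14, 9.42, 10.10 and 9.80. Both were lowest in cTh1. Ecpas, a proteasome adaptor, was higher in cTh1 than in TT naive by 0.44 and Ngly1, which processes the Nfe2l1 product, by 0.33. Of 6 genes of ubiquitin and its activation, 1 was measured with a single symbol, Uba6, an activating enzyme, between 9.52 and 9.77.

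Genes of other complexes were read beside these. The chaperonin CCT, which folds actin and tubulin, and the COP9 signalosome, a relative of the lid, are also complexes of many subunits. In nTh1 over TT naive all 8 CCT genes and all 9 COP9 genes were lower, with medians of -0.29 and -0.24 beside -0.21 for the proteasome, where 58.1% of all genes were lower with a median of -0.05. In nTh1 over the array labelled naive the medians were -0.41 and -0.56 beside -0.40, and -0.10 over all genes. In nTh1 over cTh1, 4 of 8 CCT genes were lower, with a median of -0.01, and 8 of 9 COP9 genes, with a median of -0.25, against 57% and -0.08 of all genes. In cTh1 over TT naive the CCT median was -0.22, with Cct3 lowest at -0.75 and Tcp1 highest at 0.29, and the COP9 median was 0.06, with Gps1 lowest at -0.44 and Cops4 highest at 0.24. Gene lists of this kind were not tested against each other.

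**Figure D5:**
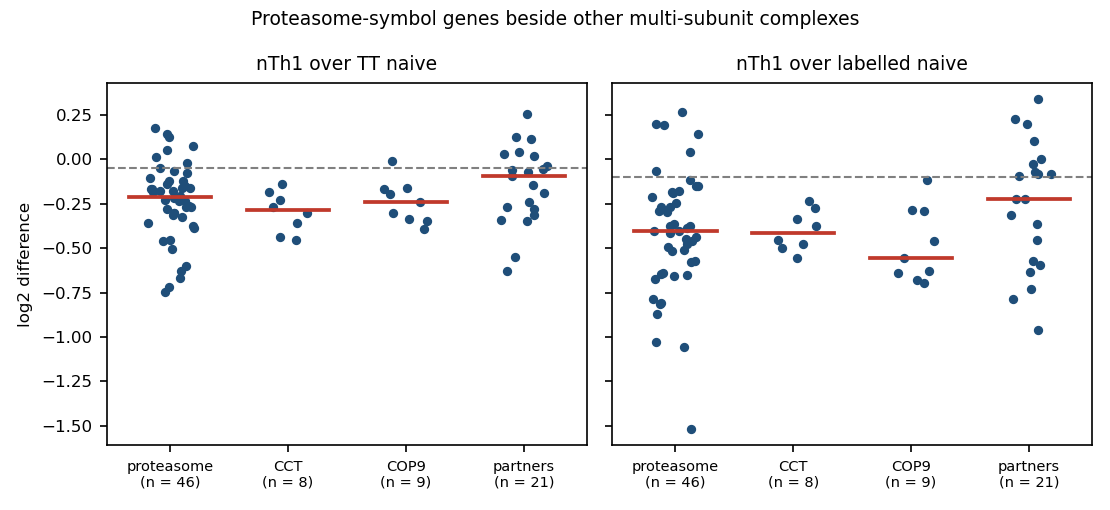
Log2 differences (vertical axis) of nTh1 over TT naive (left) and nTh1 over the array labelled naive (right), 1 point per gene, for the 46 proteasome genes, 8 CCT genes, 9 COP9 genes and 21 proteasome partners. Red lines are medians and the dashed line is the median of all genes past the filter, and the medians of all 4 sets lie below it.

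Markers of other cells moved with these comparisons, and their part in the results was not tested. Of 10 myeloid markers, all measured, 9 were at least 1.5-fold higher in nTh1 than in TT naive, against 3.49% of all genes. The other 1, Itgam, was at least 1.5-fold lower, by -0.64, against 4.43% of all genes. The summed linear signal of the 10 was 3670 in nTh1, 1841 in cTh1, 1423 in TT naive and 2616 on the array labelled naive. Of 8 B cell markers 7 were measured, with a sum of 1155 in nTh1, 4532 in cTh1, 644 in TT naive and 688 on the array labelled naive. The CD8 chains Cd8a and Cd8b1 had a sum of 946, 2986, 742 and 430 in the same order, and 5 NK markers 2163, 520, 695 and 1430. Of 10 proliferation genes 9 were measured, with a sum of 11175 in nTh1, 17287 in cTh1, 12068 in TT naive and 17691 on the array labelled naive. Single genes differed between arrays of like sums. In cTh1 over the array labelled naive 2 of the 9 were at least 1.5-fold higher and 2 lower, against 10.7% and 9.72% of all genes. Eomes, which T cells also express, was the highest of the 5 NK markers on every array. It was at 10.68 in nTh1, 7.94 in cTh1, 8.84 in TT naive and 10.03 on the array labelled naive. Tyrobp was next, at 8.59, 7.32, 6.85 and 7.66 in the same order. Ncr1, Klrb1c and Klre1 lay between 4.73 and 6.32 on every array. All 7 measured B cell markers were at least 1.5-fold higher in cTh1 than on the array labelled naive, against 10.7% of all genes. The B cell marker Ms4a1 was at 6.45 in nTh1, 8.33 in cTh1, 5.27 in TT naive and 4.99 on the array labelled naive. Cd8a was at 6.42, 10.31, 6.22 and 6.31 in the same order. Array values have no true 0. The 6 measured T cell markers had a sum of 31200 in nTh1, 33402 in cTh1, 34247 in TT naive and 32415 on the array labelled naive.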

How the data were processed

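RNA of 4 populations was measured with 1 Affymetrix array each, from 300 ng of total RNA per the labels' protocols. The authors deposited log2 values of 41345 probe sets, and the submitters' processing notes name RMA and Affymetrix Expression Console 1.3.1. RMA gives each probe set 1 background-corrected, quantile-normalized value. The sources used here do not give the annotation version. Columns were matched by sample identifier, and 0 stayed unmatched. The number of arrays limits the precision.

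Probe sets with 1 symbol in the platform's annotation named 22180 genes, with the probe set of highest mean over the 4 arrays kept for each. All 46 members were found in a RefSeq gene table (GRCm38.p6), used for names. Counts over all genes used the 12159 whose mean reached the median of all values, and a difference of 1.5-fold was called, with 2-fold as an alternative. This mean filter replaces one on either array, which favours the array where a gene is high. The SD between probe sets was pooled within genes. No test was made. The members, lists and thresholds were chosen with earlier results of these data known. Full values were given for catalytic subunits, activators, members past 1.5-fold and the highest and lowest of each role group in cTh1 over TT naive. Full values of other members, of Psma4 and of shared probe sets were chosen after values were seen. Which 4 of the 7 motifs searched to describe first was chosen after matches were seen. Partners named were the 3 highest and 3 lowest in cTh1 over TT naive, with Nfe2l1 and Nfe2l2. Alternatives were the mean of all probe sets, centring, a loess trend with a span of 0.3, other level filters and the members above the filter only. Counting was tested on simulated data. Python 3.11.15, numpy 2.4.6, pandas 2.3.3, statsmodels 0.14.6 and matplotlib 3.10.9 were used.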

Additional observations from a re-analysis of the deposited data

How the results depend on the processing

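Of 96 recomputed medians and counts, 73 stayed within 1.5 times their value or stayed at 0. These 73 include every count of members 1.5-fold higher, which was 0 in all comparisons and settings, at 2-fold by construction. Only medians have a direction that could turn, and none did. The cause of the other changes was not tested unless the alternative itself gives it. The count of members 1.5-fold lower in nTh1 over TT naive was 5, and 3 after centring and 3 after removal of a trend on level. In cTh1 over the array labelled naive it was 5, and 3 with the mean of all probe sets. In nTh1 over the array labelled naive it was 12, and 7 after centring. The median in cTh1 over TT naive was -0.06, and -0.0157 with the trend removed. In nTh1 over cTh1 it was -0.15, and -0.0703 after centring. At 2-fold, by construction, the lower members were 0 in nTh1 over TT naive, 0 in cTh1 over the array labelled naive, 0 in cTh1 over TT naive and 3 in nTh1 over the array labelled naive. Counts over all genes, in the order nTh1 over TT naive, cTh1 over the array labelled naive, cTh1 over TT naive, nTh1 over cTh1, TT naive over the array labelled naive and nTh1 over the array labelled naive, were 274, 969, 1183, 1366, 386 and 734 at 2-fold, and 507, 1351, 1526, 1866, 576 and 1288 with the level filter set at percentile 75, which tests fewer genes. With no level filter nTh1 over TT naive had 1456 genes, against 963 with it. Without the array labelled naive, an alternative chosen after seeing the data, nTh1 was lowest for 29 members as before, and TT naive was highest for 28 in place of 4 and cTh1 for 13 in place of 4. No paired analysis was possible because each group has 1 array.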

Other observations

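Psma4, which encodes an alpha ring subunit, has probe sets that the annotation also gives to AY074887, so it names no gene by the rule used. The brighter of these probe sets was at 9.42 in nTh1, 9.71 in cTh1, 9.74 in TT naive and 9.90 on the array labelled naive. It had nTh1 lowest and the array labelled naive highest, as most of the subunits did. The dimmer one was at 5.72, 5.79, 5.64 and 5.37, below the level filter on every array. A probe set shared by Psmd1 and Armc9 was at 7.77, 7.59, 7.77 and 7.66 in the same order, and differed less than the probe set of Psmd1 alone.

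Vcp, the segregase that unfolds ubiquitin-marked proteins before the proteasome takes them, was named after its values were seen. It was at 10.27 in nTh1, 10.74 in cTh1, 10.82 in TT naive and 11.23 on the array labelled naive, and had the lowest difference of the 21 measured partners in nTh1 over the array labelled naive, at -0.96. Its cofactors Nploc4 and Ufd1 differed by -0.09 and 0.22 in that comparison.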
